A study of Mus musculus with 656 samples.

Results

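SC-514, a small-molecule inhibitor of the kinase IKKβ, was compared at 100 µM with 0 µM in 3T3 cells, a mouse fibroblast line, 120 min after stimulation labelled IL-1β at 1 ng/ml. The comparison rests on 8 of the 164 sequencing libraries of the series, 4 at each concentration, and they were chosen by their labels alone. All cells were kept in medium with bovine calf serum, and SC-514 at 0, 25, 50 or 100 µM was given for 1 h before the stimulus. The series crossed those concentrations with IL-1β or TNF-α (10 ng/ml) and 5 times from 15 to 360 min, beside an unstimulated group at 0 µM, which made 41 groups of 4 libraries. Beside the 8 libraries, values are given from the 4-library groups at 25 and 50 µM (IL-1β, 120 min), at 0 and 100 µM after 60 and 360 min of IL-1β, at 0 and 100 µM after 120 min of TNF-α, and from the unstimulated cells. The unstimulated cells received neither a stimulus nor SC-514, and the series has no group with the inhibitor but no stimulus. The vehicle at 0 µM is not given in the labels. An effect of SC-514 on resting cells and its effect on the response to the stimulus therefore cannot be told apart.

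IL-1β and TNF-α bind different receptors whose signals meet at the IκB kinase complex, in which IKKβ phosphorylates the IκB proteins. Phosphorylated IκB is degraded, and the NF-κB dimers that it held in the cytoplasm enter the nucleus and raise transcription of cytokine, chemokine, protease and survival genes, and of their own inhibitors such as IκBα (Nfkbia) and A20 (Tnfaip3). In fibroblasts the same stimuli also reach MAP kinases and the AP-1 factors, and fibroblasts are a main tissue source of interleukin 6, chemokines and matrix metalloproteinases.

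The labels carry a conflict that touches every sentence on a stimulus. The records labelled IL-1β have titles that begin with 1 but count columns that begin with 2, and the records labelled TNF-α have titles that begin with 2. The count columns of the TNF-α libraries at 0 µM begin with no number, and those of the unstimulated cells begin with 1. Nfkbiz, which encodes IκBζ and is known as a gene induced by IL-1 and hardly by TNF, stood at 39.9 ± 5.67 CPM (counts scaled to 1000000 counts in a library; mean ± SD, n = 4 for this and every later group value) in the libraries labelled IL-1β at 0 µM and 120 min and at 32.3 ± 7.79 CPM in unstimulated cells. In the libraries labelled TNF-α at the same time it stood at 290 ± 42.9 CPM. Zc3h12a, which encodes an RNase that degrades cytokine mRNAs, stood at 21.5 ± 3.72 CPM and 136 ± 9.17 CPM in the 2 stimulated groups. The stimulus names below are those of the labels, and the comparison of 100 with 0 µM stays within 1 labelled stimulus and time.

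The 4 libraries at 0 µM held 1417954 to 1531296 counts and the 4 at 100 µM held 928906 to 1077984, so 3 counts correspond to 1.96 to 3.23 CPM, and the inhibited libraries were the shallower ones throughout. The libraries were made from the 3′ ends of polyadenylated RNA. Whether the 4 libraries of a group were separate cultures is not stated. The p-values rest only on the spread between libraries within groups, estimated in 1 fit over all 41 groups, and this spread may be technical. The library at 100 µM numbered 1 stood apart: it had 14634 genes with a count against 13198 to 13350 in the other 3, and 281 genes at over 2 times the level of each other library of its group, against 20 to 34 for the others. Of those 281 genes, 96 were called higher at 100 µM and 0 were called without it. Markers of fibroblasts were present, the lowest of 12 being Pdgfrb at 88.2 CPM, and 7 of the 21 measured markers of other cell types were at 0 in all 8 libraries (Epcam, Cdh1, Krt5, Krt14, Cdh5, Adgre1 and Gfap). The summed level of those 21 markers was 147 to 184 CPM at 0 µM and 221 to 253 CPM at 100 µM. Lpl, the lipoprotein lipase gene and an adipocyte marker, took a large share of it, with 75.5 to 109 CPM and 156 to 219 CPM, and the other 20 summed to 58.6 to 78.3 CPM and 34.3 to 81.8 CPM, among which Cd14 went from 133 to 24 counts over the 4 libraries and Tubb3 from 102 to 24. The share of mitochondrial counts was 0.576% to 0.599% and 0.636% to 0.862%. The part of these markers and shares in the differences below was not tested.

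NF-κB dimers bind sites close to GGG and TTCC with 3 bases of any kind between them. The 250 bases before the transcription start of 4 genes are printed from RefSeq (GRCm38.p6). Each match to those letters on either strand is in capitals. Il6 and Ccl20 were among the genes that fell at 100 µM SC-514. Cxcl1 and Nfkbia, chosen after their values were seen, did not pass the test. Under some other settings both passed it, Cxcl1 as lower, like Il6 and Ccl20, and Nfkbia as higher. Il6 encodes interleukin 6 (chr5:30012864-30013113, plus strand), Ccl20 a chemokine for lymphocytes and dendritic cells (chr1:83116516-83116765, plus strand), Cxcl1 a chemokine for neutrophils (chr5:90890995-90891244, plus strand) and Nfkbia the inhibitor IκBα (chr12:55492648-55492897, minus strand). Each is written 5′ to 3′ on the strand of its gene.
Il6: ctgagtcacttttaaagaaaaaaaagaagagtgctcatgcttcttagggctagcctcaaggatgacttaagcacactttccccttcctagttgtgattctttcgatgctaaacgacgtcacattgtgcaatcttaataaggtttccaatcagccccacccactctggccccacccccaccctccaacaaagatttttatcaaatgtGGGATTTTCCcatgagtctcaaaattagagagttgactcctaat
Ccl20: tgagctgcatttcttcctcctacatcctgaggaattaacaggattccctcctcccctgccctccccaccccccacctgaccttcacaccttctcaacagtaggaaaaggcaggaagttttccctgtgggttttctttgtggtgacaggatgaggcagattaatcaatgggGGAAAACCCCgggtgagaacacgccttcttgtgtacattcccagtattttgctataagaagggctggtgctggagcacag
Cxcl1: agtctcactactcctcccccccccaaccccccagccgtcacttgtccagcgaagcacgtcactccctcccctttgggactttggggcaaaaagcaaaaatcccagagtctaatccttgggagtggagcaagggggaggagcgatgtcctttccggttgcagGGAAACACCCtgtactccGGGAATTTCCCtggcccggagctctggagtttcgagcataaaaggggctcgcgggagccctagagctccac
Nfkbia: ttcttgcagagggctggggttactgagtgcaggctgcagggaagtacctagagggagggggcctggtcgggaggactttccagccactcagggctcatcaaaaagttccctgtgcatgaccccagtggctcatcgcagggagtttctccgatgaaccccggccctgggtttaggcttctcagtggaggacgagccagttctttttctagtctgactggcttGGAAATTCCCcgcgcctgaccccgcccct

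The match nearest the start began 44 bases before it in Il6, 80 in Ccl20, 70 in Cxcl1 and 29 in Nfkbia, and Cxcl1 had 3 matches. Over 5 lists of genes around NF-κB (chemokines, cytokines and growth factors, effectors, IκB and feedback inhibitors, NF-κB subunits), 35 of the 51 genes that fell had a RefSeq window, and 7 of those 35 (20%) held the letters: Il6, Ccl20, Ccl9, Cxcl2, Cxcl10, Nfkbie and Tnip1. Of the 26 genes that did not pass the test, 19 had a window and 7 (36.8%) held the letters: Cxcl1, Nfkbia, Nfkbid, Nfkb2, Rel, Tnfaip3 and Cyld. Of 8497 tested genes with a window, 6.13% held them, and 5.31% of all 27025 windows did. The share was no higher among the genes of these lists that fell than among those that were not called, which describes these windows and not binding.

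The difference between 100 and 0 µM was broad and took both directions. Of 10766 genes tested with edgeR's quasi-likelihood test (Benjamini-Hochberg adjusted p at most 0.05), 1536 were higher at 100 µM (14.3%) and 1742 were lower (16.2%), and 2659 of these calls were under 2-fold. At 2-fold or more, 311 genes were higher and 308 lower. Without the library at 100 µM numbered 1 the calls numbered 1233 and 1506, of which 1139 and 1439 were called with it too. With all 8 libraries thinned to 928906 counts they numbered 1410 and 1500, and with upper-quartile scaling, without 2 shallow libraries of other groups, 2039 and 1425. The split also turned with RLE factors, another scaling (1774 and 1584), and with DESeq2, another test (1398 and 1332). With RLE factors but without the 2 shallow libraries it was 1564 and 1759. In 1495 genes (13.9%) every library at 100 µM lay above every library at 0 µM and in 1444 (13.4%) every one lay below. The median log2 difference over all tested genes was 0.031, so the list medians given below are close to differences from all genes. Counts and medians of a list are over the members that passed the filter on low counts. The counts are to be read beside the 14.3% higher and 16.2% lower over all tested genes.

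**Figure D1:**
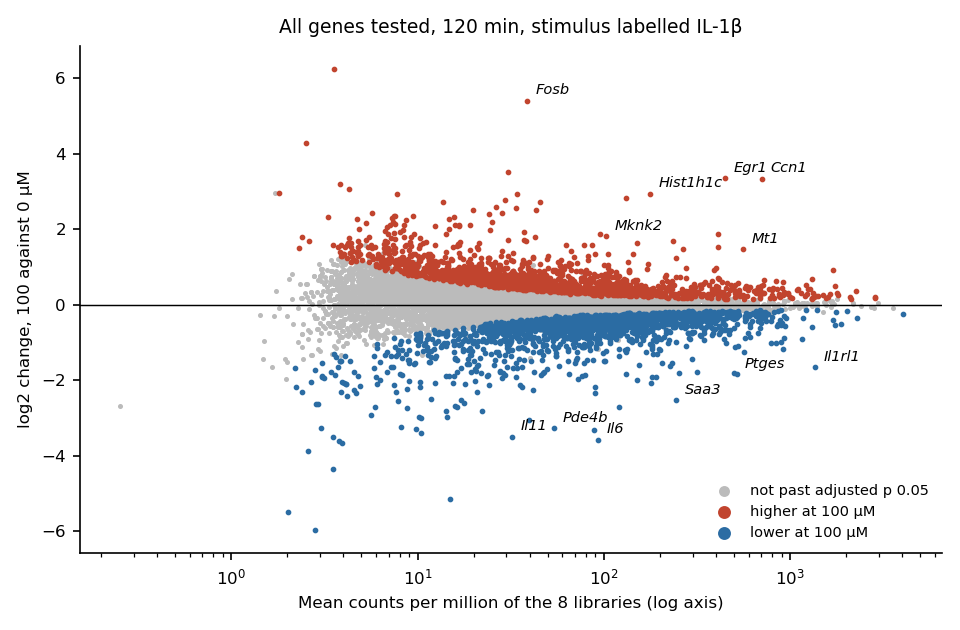
Log2 difference between 100 and 0 µM SC-514 (vertical axis) against the mean level in CPM (horizontal axis, log scale) for the 10766 tested genes, 120 min after stimulation labelled IL-1β; colours mark the 1536 genes called higher and the 1742 called lower. Calls lie on both sides of 0 over the whole range of levels.

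Genes of secreted cytokines and growth factors fell for the most part. Of 19 tested members of that list (22 in all), 12 fell, 1 rose (Csf1, the macrophage growth factor, from 773 ± 21.1 to 962 ± 34.4 CPM) and 6 did not pass the test, with a median of -1.11 on the log2 scale. Il6 (chr5:30013114-30019981, plus strand, in the GENCODE M21 annotation of GRCm38, as for later positions) stood at 191, 165, 167 and 161 CPM in the libraries at 0 µM and at 9.32, 16.7, 10.8 and 21.9 CPM at 100 µM, a log2 difference of -3.57 (SE 0.3, adjusted p = 2.71e-19). All 4 inhibited libraries were far below the others and close to the unstimulated level of 11.8 ± 5.7 CPM. Il11, an interleukin of the same receptor family, stood at 54, 68.6, 50.1 and 64 CPM and then at 15.5, 2.78, 1.08 and 2.08 CPM (-3.49, SE 0.34, adjusted p = 1.35e-16). Library 1 at 100 µM held the highest of the 4 inhibited values, and the groups did not overlap.

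Inhba, the activin A subunit, fell from 157, 165, 126 and 143 CPM to 47.6, 18.6, 21.5 and 33.3 CPM (-2.34, SE 0.21), below its unstimulated level of 53.1 ± 6.32 CPM. Areg, an EGF receptor ligand, fell from 24.7, 30, 21.2 and 23.5 CPM to 4.14, 3.71, 3.23 and 3.12 CPM (-2.81, SE 0.4). Lif, a cytokine of the interleukin 6 family, fell less, from 419 ± 34.7 to 286 ± 12.8 CPM (-0.59, SE 0.17, adjusted p = 0.0051). In each of these genes every inhibited library lay under every library at 0 µM. A few members were near the detection floor at 100 µM: Il1a, the alarmin interleukin 1α, had a level 27 times higher at 0 than at 100 µM (95% counting interval 4.58 to 1091), Csf3, the granulocyte growth factor, 10.9 times higher (2.78 to 93.4). Outside the list, Il1f6, interleukin 36α, had no count at 100 µM and was at least 7.46-fold lower (3 counts over the group). Csf2, the granulocyte and macrophage growth factor, did not pass the test, at 58, 34.6, 54.3 and 43.1 CPM against 37.3, 50.1, 34.4 and 33.3 CPM (-0.32, adjusted p = 0.296), and its groups overlapped. Without the libraries numbered 2 in every group Csf2 was called lower (-0.61, adjusted p = 0.0477). It was at 1.02 ± 0.455 CPM in unstimulated cells.

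Chemokines split. Of 15 tested members (18 in all), 10 fell, 1 rose and 4 did not pass, with a median of -1.05; without library 1 at 100 µM 8 fell and 1 rose. Cxcl5, a neutrophil chemokine, stood at 497, 502, 482 and 472 CPM at 0 µM and at 95.2, 176, 127 and 180 CPM at 100 µM (-1.79, SE 0.17, adjusted p = 9.86e-17), near its unstimulated 136 ± 12 CPM. Ccl20 fell from 282, 292, 210 and 216 CPM to 81.8, 133, 81.8 and 157 CPM (-1.17, SE 0.2), which left it far above the 1.97 ± 1.47 CPM of unstimulated cells. Cxcl2 fell from 15.3, 9.14, 10.6 and 15 CPM to 1.04, 4.64, 2.15 and 6.24 CPM (-1.83, SE 0.47, adjusted p = 0.00111). Ccl9, a chemokine of macrophages and fibroblasts, fell by 1.00 (SE 0.087) and Cx3cl1, the membrane-bound fractalkine, by 1.05 (SE 0.16). In all 5 genes the libraries of the 2 groups did not overlap. Chemokines that interferon also induces fell with more spread: Cxcl10 stood at 971, 541, 931 and 735 CPM and at 239, 485, 326 and 313 CPM (-1.25, SE 0.47, adjusted p = 0.0326), and Cxcl9 fell from 30.4 ± 12.6 to 5.02 ± 1.99 CPM (-2.59, SE 0.62). Library 2 at 0 µM held the lowest uninhibited value of both, and Cxcl10 was not called in 5 of the 8 fits that each left out 1 library (adjusted p = 0.0645 to 0.105; without libraries 1 or 3 at 0 µM, or 1, 3 or 4 at 100 µM).

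Other chemokines of high level were not called. Ccl2, the monocyte chemokine, stood at 3130, 2834, 2877 and 2688 CPM at 0 µM and at 2776, 3352, 3080 and 3129 CPM at 100 µM (0.058, SE 0.11, adjusted p = 0.727), against 1054 ± 61.7 CPM unstimulated. Ccl7, its neighbour in the chemokine cluster, stood at 1224 ± 61.7 and 1425 ± 162 CPM (0.18, adjusted p = 0.351), and was called higher in a fit on the 8 libraries alone (0.20, adjusted p = 0.0253). Cxcl1 stood at 520, 433, 537 and 465 CPM against 347, 642, 327 and 403 CPM (-0.22, SE 0.15, adjusted p = 0.268). The library at 100 µM numbered 2 held the highest Cxcl1 value of all 8, and without it Cxcl1 was called lower (-0.49, adjusted p = 0.0109), as it was without the filter on low counts (-0.25, adjusted p = 0.0111). Cxcl12, a chemokine that fibroblasts make without a stimulus, was the member that rose, from 281, 280, 255 and 248 CPM to 467, 611, 516 and 534 CPM (0.96, SE 0.089), and its unstimulated level was 441 ± 7.73 CPM.

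**Figure D2:**
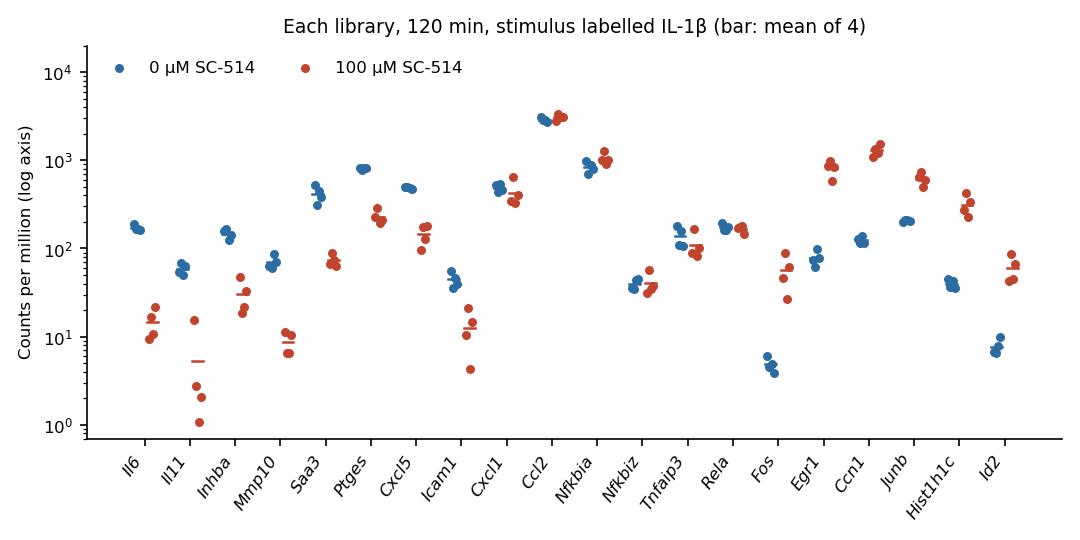
Level in CPM (log scale) of 20 genes in each of the 4 libraries at 0 µM and the 4 at 100 µM SC-514, 120 min after stimulation labelled IL-1β; points are libraries and bars are group means. Il6, Mmp10 and Ptges are lower in all 4 inhibited libraries, Egr1 and Ccn1 higher in all 4, and the points of Ccl2, Cxcl1 and Nfkbia overlap.

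Adhesion, prostaglandin and protease effectors fell in large part: 23 of 29 tested (31 in all) fell and 3 rose, and the list's median fell by 1.00 on the log2 scale. Ptges, the prostaglandin E synthase gene (chr2:30889471-30929863, minus strand), stood at 827, 766, 813 and 812 CPM and then at 226, 287, 197 and 209 CPM (-1.84, SE 0.099, adjusted p = 1.02e-34). Ptgs2, the inducible cyclooxygenase, fell from 779, 731, 676 and 641 CPM to 321, 320, 350 and 381 CPM (-1.08, SE 0.16), a level still above the unstimulated 75.5 ± 7.73 CPM. The prostaglandin E receptor gene Ptger4 went the other way, from 5.33, 7.84, 12 and 9.8 CPM to 44.5, 38, 38.8 and 44.8 CPM (2.20, SE 0.23), although Ttc33 overlaps it on the other strand and the strand setting of the counting is not given. Mmp3, the stromelysin 1 gene (chr9:7445822-7455975, plus strand), fell from 759, 757, 765 and 813 CPM to 187, 241, 249 and 233 CPM (-1.80, SE 0.11), under its unstimulated level of 323 ± 19 CPM, and Mmp10 fell by 3.04 (SE 0.3). Mmp2, gelatinase A, rose by 0.36 (SE 0.11).

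Saa3, an acute-phase protein, fell from 522, 310, 445 and 383 CPM to 67.3, 90, 74.3 and 63.5 CPM (-2.52, SE 0.19). Has2, a hyaluronan synthase, fell from 152, 148, 158 and 127 CPM to 29, 33.4, 31.2 and 38.5 CPM (-2.18, SE 0.2), and Timp1, the metalloproteinase inhibitor, from 1174 ± 68.8 to 613 ± 89.6 CPM (-0.98, SE 0.14). Both were below their unstimulated 89 ± 7.04 and 780 ± 34.1 CPM. Sod2, the mitochondrial superoxide dismutase and a known NF-κB target, fell by 0.76 (SE 0.068). Plau, urokinase, fell by 1.46 (SE 0.19) and Plaur, its receptor, by 1.99 (SE 0.16). Slc7a2, an arginine transporter, fell by 1.90 (SE 0.15), and Icam1, the leukocyte adhesion molecule, by 1.82 (SE 0.27). Icam1 stood at 12.6 ± 7.17 CPM at 100 µM against 0.836 ± 0.695 CPM unstimulated. Vcam1, another adhesion molecule, fell by only 0.48 (SE 0.1, adjusted p = 1.03e-04), from 1036 ± 112 to 766 ± 60.6 CPM. Low members fell too: Nos2, the inducible nitric oxide synthase, from 14.7 ± 5.93 to 1.56 ± 1.8 CPM, and Acod1, which makes itaconate, from 18.5 ± 3.76 to 2.29 ± 1.32 CPM. Outside the list, Serpinb2, plasminogen activator inhibitor 2, had a level 38.2 times higher at 0 than at 100 µM (95% counting interval 12.8 to 187).

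Among the inhibitors of NF-κB the members did not move together: of 16 tested, 5 fell (Nfkbie, Tnip1, Tnip3, Bcl3 and Nfkbib, which Sirt2 overlaps on the other strand), 2 rose (Zfp36 and Zc3h12a) and 9 did not pass, with a median of -0.30. Nfkbia stood at 978, 691, 888 and 803 CPM at 0 µM and at 1005, 1263, 903 and 1014 CPM at 100 µM (0.28, SE 0.12, adjusted p = 0.0715), against 141 ± 9.85 CPM unstimulated. The groups overlapped, and it was called higher without the library at 0 µM numbered 1 (adjusted p = 0.0304) and without the one at 100 µM numbered 3 (adjusted p = 0.0391). It was also called higher with RLE factors, another scaling of the libraries (0.31, adjusted p = 0.0474), with upper-quartile factors (0.34, 0.0216), without the filter on low counts (0.25, 0.00321), with the replicate block over all groups (0.29, 0.0366) and without the libraries numbered 1 in every group (0.38, 0.0377). Nfkbie, which encodes IκBε, fell from 250, 222, 274 and 259 CPM to 142, 119, 128 and 137 CPM (-0.97, SE 0.15), and Tnip1, a partner of A20, fell by 0.88 (SE 0.11). Tnfaip3 stood at 181, 110, 156 and 108 CPM and at 89, 166, 81.8 and 101 CPM (-0.37, SE 0.18, adjusted p = 0.106). Its inhibited library 2 lay among the values at 0 µM, and without that library it was called lower (-0.66, adjusted p = 0.00599), as it was without the one at 0 µM numbered 4 (-0.47, adjusted p = 0.0471) and without the filter on low counts (-0.39, adjusted p = 0.00451). Zfp36, tristetraprolin, which speeds decay of AU-rich mRNAs such as those of cytokines, rose from 86, 53.5, 82.5 and 64.7 CPM to 245, 278, 174 and 216 CPM (1.64, SE 0.2), and Zc3h12a rose by 0.79 (SE 0.19).

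Of the 5 NF-κB subunit genes, Nfkb1 (p105/p50) fell, from 195, 192, 194 and 190 CPM to 107, 98.3, 106 and 104 CPM (-0.94, SE 0.11, adjusted p = 2.06e-12). The other 4 did not pass the test: Rela at 174 ± 14.8 and 167 ± 15.5 CPM, Nfkb2, which Psd overlaps on the other strand, at 216 ± 5.17 and 223 ± 15.4 CPM, Relb at 136 ± 15 and 121 ± 19.3 CPM, and Rel at 78.2 ± 17.9 and 89 ± 11 CPM. Relb was called lower without the libraries numbered 3 in every group (-0.34, adjusted p = 0.0475). All 5 subunit genes were higher at 0 µM than in unstimulated cells. Ikbkb, the gene of the kinase that SC-514 inhibits, stood at 51.4 ± 9.05 and 47.3 ± 1.79 CPM (-0.17, adjusted p = 0.452); its mRNA level says nothing of its activity. The 12 genes of the IKK complex and its upstream kinases, with 1 higher and 2 lower (2 and 2 without library 1 at 100 µM), had shares near the 14.3% higher and 16.2% lower over all tested genes. Of these, Ikbke (-1.03, SE 0.26) and Tbk1 (-0.56, SE 0.15), both IKK-related kinases, fell, and Map3k14, the NF-κB-inducing kinase of the non-canonical route, rose from 10 ± 2.07 to 28.2 ± 6.63 CPM (1.45, SE 0.24).

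In the IL-1 receptor pathway 3 of 10 tested members fell and 1 rose. Il1rl1, the interleukin 33 receptor gene (chr1:40429570-40465415, plus strand), fell from 1866, 2064, 1985 and 2302 CPM to 629, 667, 665 and 732 CPM (-1.65, SE 0.11, adjusted p = 7.39e-27), below the unstimulated 1583 ± 9.3 CPM. Il1rn, the receptor antagonist, fell by 1.71 (SE 0.2) and Il1rap, the shared co-receptor, by 0.90 (SE 0.12), while Tollip, an adaptor that dampens the signal, rose by 0.47 (SE 0.11). Il1r1, the signalling receptor, stood at 44.9 ± 8.09 and 35.3 ± 1.64 CPM (-0.39, adjusted p = 0.115). Among 12 tested genes of TNF receptors and adaptors 4 fell and 1 rose (0 without library 1 at 100 µM). Traf1 fell from 115 ± 15.6 to 30 ± 11.5 CPM (-1.97, SE 0.17) and the death receptor gene Fas from 272 ± 27.4 to 125 ± 17.9 CPM (-1.16, SE 0.11). The member that rose, Traf5, rests on library 1 at 100 µM, with 152 CPM there and 26, 57.1 and 33.3 CPM in the others, and was not called without it (0.17, adjusted p = 0.786) or without the library at 0 µM numbered 4 (0.80, adjusted p = 0.0884). Of 12 tested survival genes 6 fell and 2 rose (7 and 1 without library 1). Those that fell include the inhibitors of apoptosis Birc2 (-0.86, SE 0.14) and Birc3 (-0.70, SE 0.15), the caspase 8 inhibitor Cflar (-0.58, SE 0.11) and the kinase Pim1 (-0.84, SE 0.15).

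Immediate early genes, which encode transcription factors and regulators that rise within minutes of many stimuli and do not need new protein, were higher under the inhibitor. Of 35 tested members (36 in all), 20 rose, 4 fell (Nr4a2, Klf2, Fosl1 and Ier3) and 11 did not pass, with a median of 0.88. Fos stood at 6, 4.57, 4.94 and 3.92 CPM at 0 µM and at 46.6, 90, 26.9 and 62.4 CPM at 100 µM (3.50, SE 0.38, adjusted p = 1.04e-13). Egr1, a zinc finger factor downstream of MAP kinases, stood at 73.3, 61.4, 99.4 and 77.1 CPM and at 872, 973, 585 and 838 CPM (3.36, SE 0.22, adjusted p = 7.41e-27). In both genes library 2 at 100 µM was the highest and library 3 the lowest of the inhibited 4, and all lay far above 0 µM. Fosb went from 1.67 ± 0.633 to 76 ± 28.7 CPM (5.40, SE 0.85). The matricellular gene Ccn1 (chr3:145646976-145649981, minus strand) rose from 127, 114, 138 and 116 CPM to 1096, 1354, 1207 and 1515 CPM (3.34, SE 0.19), above its unstimulated 278 ± 23.8 CPM.

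The AP-1 genes Junb (1.54, SE 0.15) and Jund (1.24, SE 0.11) rose, as did Ier2 (1.48, SE 0.15), the growth arrest gene Btg2 (1.59, SE 0.2) and the phosphatase gene Dusp2 (3.06, SE 0.6). Prdx2 overlaps Junb on the other strand. Gadd45b, a stress gene that is also an NF-κB target, rose from 83.6 ± 16.6 to 186 ± 63.9 CPM (1.13, SE 0.19). Of the early genes that fell, Nr4a2, an orphan nuclear receptor, went from 19.8 ± 3.89 to 4.89 ± 1.67 CPM (-2.06, SE 0.35), Fosl1, an AP-1 subunit, from 193 ± 16.6 to 137 ± 28.8 CPM (-0.53, SE 0.12), and Klf2, a Krüppel-like factor, from 14 ± 5.35 to 5.76 ± 5.28 CPM with overlapping libraries (-1.28, SE 0.35). The early gene Ier3 went from 332 ± 11.1 to 255 ± 17.1 CPM (-0.42, SE 0.12, adjusted p = 0.00459). Irf1, an interferon regulatory factor in the list of C/EBP, IRF and STAT factors, was called higher (0.63, SE 0.17) but rests on library 2 at 100 µM, with 724 CPM there against 341, 330 and 475 CPM in the others. It was not called without that library (0.33, adjusted p = 0.172).

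Targets of BMP signalling rose as well. BMPs act through SMAD factors that induce the Id genes and the inhibitory SMADs. Of 18 tested members of the BMP and TGF-β list (19 in all, with ligands and antagonists), 10 rose and 2 fell, with a median of 0.67. Id2 stood at 6.66, 6.53, 7.76 and 9.8 CPM and at 42.4, 87.2, 45.2 and 67.6 CPM (2.94, SE 0.34, adjusted p = 1.82e-12), against 20.7 ± 2.58 CPM unstimulated. Id3 rose from 172 ± 22.4 to 646 ± 226 CPM (1.88, SE 0.19), and Id1 from 158 ± 10.7 to 269 ± 88 CPM (0.74, SE 0.15), which was under its unstimulated 333 ± 9.7 CPM. Smad6, an inhibitory SMAD, rose by 2.52 (SE 0.34), and so did Atoh8, a helix-loop-helix factor (2.52, SE 0.37). Grem1, which encodes a secreted BMP antagonist, was lower in all 4 inhibited libraries, at 2045 ± 77.1 CPM against 1445 ± 114 CPM (-0.54, SE 0.059).

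Histone genes were looked at after their values had been seen. Of 66 histone genes, 15 were tested, and 9 of these rose and 0 fell, with a median of 1.62. The copies are near-identical, so the split of reads between them is uncertain. The libraries hold polyadenylated RNA only, so these counts do not cover histone transcripts without a poly-A tail. Hist1h1c rose from 44.6, 36.6, 42.3 and 35.9 CPM to 270, 421, 225 and 339 CPM (2.94, SE 0.28), and Hist1h2bc by 2.82 (SE 0.24). Among genes outside the lists, Mknk2, a kinase of the translation factor eIF4E, rose from 44.3 ± 2.98 to 161 ± 22.6 CPM (1.82, SE 0.12), the metallothionein gene Mt1 by 1.48 (SE 0.12), and the Notch target Hes1 from 11.9 ± 2.01 to 79.4 ± 41.2 CPM (2.71, SE 0.38). Grhl1, a transcription factor gene, had no count at 0 µM and was at least 14.2-fold higher at 100 µM (3 counts over the group). Ramp3, a receptor-modifying protein, fell by 3.31 (SE 0.3) and the phosphodiesterase gene Pde4b by 3.26 (SE 0.25). Hmga2, an architectural chromatin protein, fell from 1019, 1160, 1130 and 1167 CPM to 603, 519, 591 and 559 CPM (-1.02, SE 0.073).

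**Figure D3:**
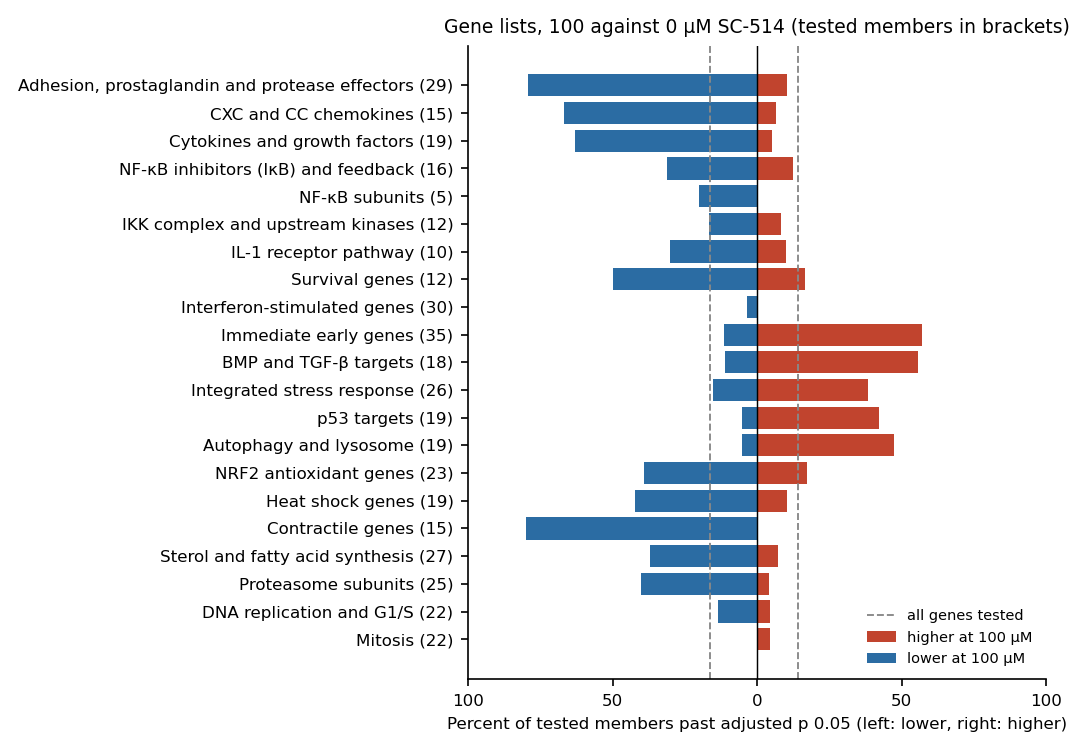
Percent of the tested members of 21 gene lists called higher (right) or lower (left) at 100 against 0 µM SC-514, with dashed lines at the shares over all tested genes (14.3% higher, 16.2% lower). Effectors, cytokines, chemokines and contractile genes lie mainly to the left, and immediate early and BMP genes to the right.

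Contractile genes fell: 12 of 15 tested members (18 in all), with 0 higher and a median of -0.45. Actn1, the actin cross-linker α-actinin 1, fell from 552, 531, 469 and 528 CPM to 283, 330, 311 and 318 CPM (-0.78, SE 0.066), and Tpm4, a tropomyosin, by 0.57 (SE 0.07). Tagln, transgelin, fell by 1.67 (SE 0.27), with Pcsk7 overlapping it on the other strand. Matrix genes were mixed, with 7 of 23 tested (25 in all) higher and 6 lower; the collagen genes Col1a2 (0.37, SE 0.054) and Col3a1 (0.63, SE 0.13) rose, and Tnc, tenascin C, fell from 685 ± 121 to 328 ± 47.1 CPM (-1.11, SE 0.16). Of 30 interferon-stimulated genes 0 were higher and 1 lower. That gene, Ifit1, spread widely between libraries (275 ± 98.9 and 113 ± 49.2 CPM, -1.30, adjusted p = 0.0496) and was called in 2 of the 8 fits that each left out 1 library (adjusted p = 0.0573 to 0.15 in the other 6, which left out libraries 1, 3 and 4 of either group).

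Stress lists are given beside 14.3% higher and 16.2% lower over all genes tested. In the NRF2, heat shock and endoplasmic reticulum chaperone lists the share higher was near the 14.3%. The share lower was above the 16.2% in the NRF2 and heat shock lists and below it in the chaperone list. In the integrated stress response 10 of 26 tested genes (29 in all) rose and 4 fell. Those that rose include Ddit3 (CHOP; 1.34, SE 0.17; Mars overlaps it on the other strand) and Sesn2, a regulator of TORC1 (1.43, SE 0.16). Atf4, the main transcription factor of that response, was called higher by 0.28 (SE 0.082) but not without library 2 at 100 µM (0.20, adjusted p = 0.0701). A separate list of aminoacyl-tRNA synthetase genes had 0 of 20 higher and 7 lower. In the NRF2 antioxidant list 4 of 23 tested (24 in all) rose and 9 fell: Hmox1, heme oxygenase 1, rose by 1.07 (SE 0.18), and Txnrd1, thioredoxin reductase 1, fell by 0.60 (SE 0.085). Heat shock genes had 2 of 19 tested (20 in all) higher (among them Dnajb1, 0.82, SE 0.11) and 8 lower (among them Hsph1, -0.99, SE 0.09). Endoplasmic reticulum chaperone genes had 4 of 20 higher, such as Herpud1 (0.97, SE 0.15), and 1 lower. Of 19 tested p53 targets (21 in all) 8 rose and 1 fell, and of 19 autophagy and lysosome genes 9 rose and 1 fell, with Sqstm1 (p62) going from 995 ± 24.5 to 1634 ± 88.7 CPM (0.67, SE 0.089).

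Of 27 tested sterol and fatty acid genes (28 in all) 10 fell and 2 rose. Idi1, of the mevalonate route, was among those that fell (-0.96, SE 0.16). Of 27 tested glycolysis and hypoxia genes (30 in all) 8 fell and 1 rose, and the glucose transporter gene Slc2a1 fell from 185 ± 13 to 79.3 ± 10.6 CPM (-1.26, SE 0.14). Of 25 proteasome subunit genes 1 was higher and 10 were lower, among the latter Psmd11 (-0.40, SE 0.07). Of 22 replication genes 1 was higher and 3 lower, the latter near the 16.2% lower over all genes tested. Of 22 mitosis genes 1, Nusap1, which Oip5 overlaps on the other strand, was higher, beside 14.3% over all genes tested. In the Myc and cyclin D list, in which 6 of 16 fell and 1 rose, the cell cycle inhibitor gene Cdkn1b rose by 1.09 (SE 0.15), Ccnd1, cyclin D1, fell by 0.44 (SE 0.056) and Odc1, of polyamine synthesis, by 0.81 (SE 0.1). In these 8 RNA pools a smaller share of cells with a transcript and less of it per cell cannot be told apart.

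The response to the stimulus itself was read from 2 sides. Between the 0 µM libraries labelled IL-1β and unstimulated cells, 880 genes were higher (8.17%) and 469 lower (4.36%), a split that moved to 759 and 631 with RLE factors and turned to 660 and 814 with upper-quartile factors. Without the libraries numbered 3 the calls numbered 596 and 270. That comparison shares its 0 µM libraries with the one of 100 with 0 µM, so the values stand only side by side, such as Il6 at 11.8, 171 and 14.7 CPM and Ccl2 at 1054, 2882 and 3084 CPM in unstimulated, 0 µM and 100 µM cells. A set chosen from other stimulated libraries was the genes called higher or lower in the libraries labelled TNF-α (0 µM, 120 min) than in unstimulated cells, 984 genes (9.14%) and 550 (5.11%). RLE factors gave 826 and 799 there and upper-quartile factors 756 and 939, and without the libraries numbered 1 or 3 the lower calls numbered 318 and 332. Of the 984 genes higher there, 520 were lower and 74 higher at 100 µM under IL-1β, with a median of -0.35. Of the 550 lower there, 169 were higher and 33 lower, with a median of 0.22. Both sets lie against the background of 16.2% lower and 14.3% higher over all genes tested.

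Lower concentrations show how the groups of genes came in. At 25 µM 727 genes were higher than at 0 µM (6.75%) and 774 lower (7.19%), and at 50 µM 1073 (9.97%) and 1252 (11.6%); all 3 concentrations share the 0 µM libraries. Of the cytokine list 4 members fell at 25 µM, 8 at 50 µM and 12 at 100 µM, and of the effectors 15, 21 and 23. Immediate early genes were higher already at 25 µM, with 23 of 35, then 25 and 20. Il6 stood at 171, 88, 34.5 and 14.7 CPM from 0 to 100 µM, and Mmp3 at 773, 342, 241 and 228 CPM. Inhba stood at 148 CPM at 0 µM, 147 CPM at 25 µM, 91.5 CPM at 50 µM and 30.3 CPM at 100 µM, and Ptgs2 at 707, 774, 595 and 343 CPM; at 25 µM neither passed the test against 0 µM (adjusted p = 0.965 for Inhba and 0.662 for Ptgs2).

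**Figure D4:**
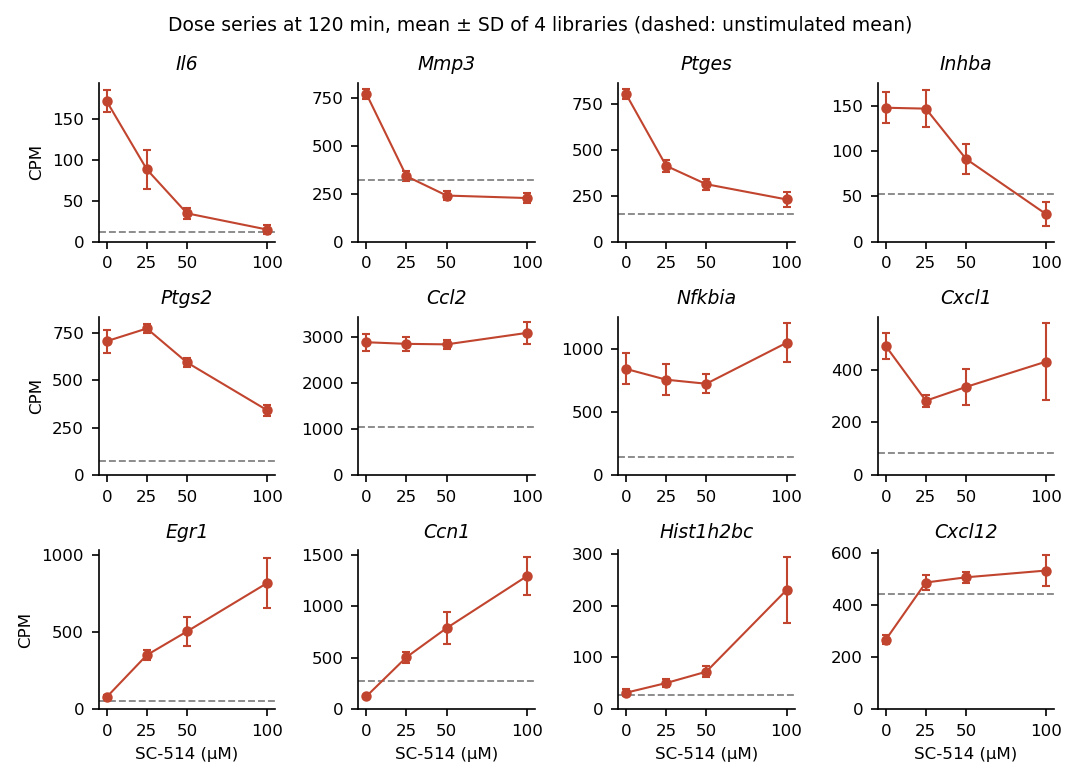
Mean level in CPM ± SD (n = 4) of 12 genes at 0, 25, 50 and 100 µM SC-514, 120 min after stimulation labelled IL-1β, with a dashed line at the unstimulated mean. Mmp3 and Il6 fall from 25 µM on, Inhba and Ptgs2 mainly above 25 µM, and Egr1, Ccn1 and Hist1h2bc rise with concentration.

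The step from 50 to 100 µM could be tested without the 0 µM libraries. It called 143 genes higher (1.33%) and 230 lower (2.14%), a split that turned to 211 and 152 with RLE and to 215 and 158 with upper-quartile scaling. With the libraries of 1 number left out of every group the calls numbered 48 and 118 (number 1), 101 and 140 (number 2), 92 and 104 (number 3) and 105 and 152 (number 4). Inhba fell over this step (-1.62, SE 0.22, adjusted p = 7.08e-08), as did Ptgs2 (-0.82, adjusted p = 3.03e-04), Ccl9 (-0.58, SE 0.091) and Ptges (-0.46, SE 0.1, adjusted p = 0.00252). Mmp3 did not pass the test over it (-0.10, adjusted p = 0.763), and neither did Il6 (-1.22, SE 0.4, adjusted p = 0.0637). Of the immediate early list 7 rose and 6 fell over the step; Egr1 rose by 0.68 (adjusted p = 0.017) and Ccn1 by 0.70 (adjusted p = 0.00481). Of the 15 histone genes 7 rose, with Hist1h2bc at 31.6, 50.3, 72.2 and 230 CPM from 0 to 100 µM (1.65 over the step, SE 0.22, adjusted p = 1.75e-08). Nfkbia stood at 840, 755, 723 and 1046 CPM and rose between 50 and 100 µM (0.51, SE 0.12, adjusted p = 0.00576). Cxcl12 was at 266, 486, 506 and 532 CPM, with a difference over the last step that did not pass the test (0.057, adjusted p = 0.827). Leaving out the libraries of 1 number in every group ended the calls over this step of Egr1 (number 1, adjusted p = 0.221, and number 4, 0.11), Ccn1 (number 4, 0.0715) and Nfkbia (number 2, 0.0669, and number 4, 0.0735). A fit on the 2 groups alone ended those of Egr1 (0.158) and Ccn1 (0.116). Il6 was called lower over the step by that fit (0.0019), without the filter (1.69e-06) and with the replicate block (0.0456).

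The difference between 100 and 0 µM was then set against the same difference at other times, as an interaction in the fit over all groups, where a positive value means a larger (more positive) log2 difference at 120 min. Against 60 min, 41 genes differed in the positive direction (0.381%) and 5 in the negative (0.0464%), and 16 of the 41 were immediate early genes. Leaving out the libraries of 1 number in every group, whichever it was, gave 22 to 25 and 1 to 11 genes. Egr1 stood at 357 ± 48.1 CPM at 0 µM and 795 ± 149 CPM at 100 µM after 60 min, against 77.8 ± 15.9 and 817 ± 165 CPM after 120 min (interaction 2.25, SE 0.29, adjusted p = 1.24e-08). Btg2 stood at 175 ± 41.4 and 121 ± 14.2 CPM after 60 min and at 38.5 ± 6.29 and 119 ± 26.6 CPM after 120 min (2.16, SE 0.26). Feedback inhibitors and chemokines gave 3 genes each to the 41. Tnfaip3 was at 352 ± 30.3 and 93.6 ± 18.4 CPM after 60 min (1.59, SE 0.24), Cxcl1 at 1169 ± 65.1 and 549 ± 58.7 CPM (0.92, SE 0.2, adjusted p = 0.00576) and Nfkbia at 1550 ± 69.5 and 1226 ± 180 CPM (0.67, SE 0.17, adjusted p = 0.0421). Leaving out the libraries of 1 number in every group ended the call of Cxcl1 for numbers 2 and 4 (adjusted p = 0.3 and 0.111) and that of Nfkbia for numbers 2, 3 and 4 (0.198, 0.168 and 0.274), and a fit on the 4 groups alone ended those of Tnfaip3 (0.068), Cxcl1 (0.181) and Nfkbia (0.189).

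**Figure D5:**
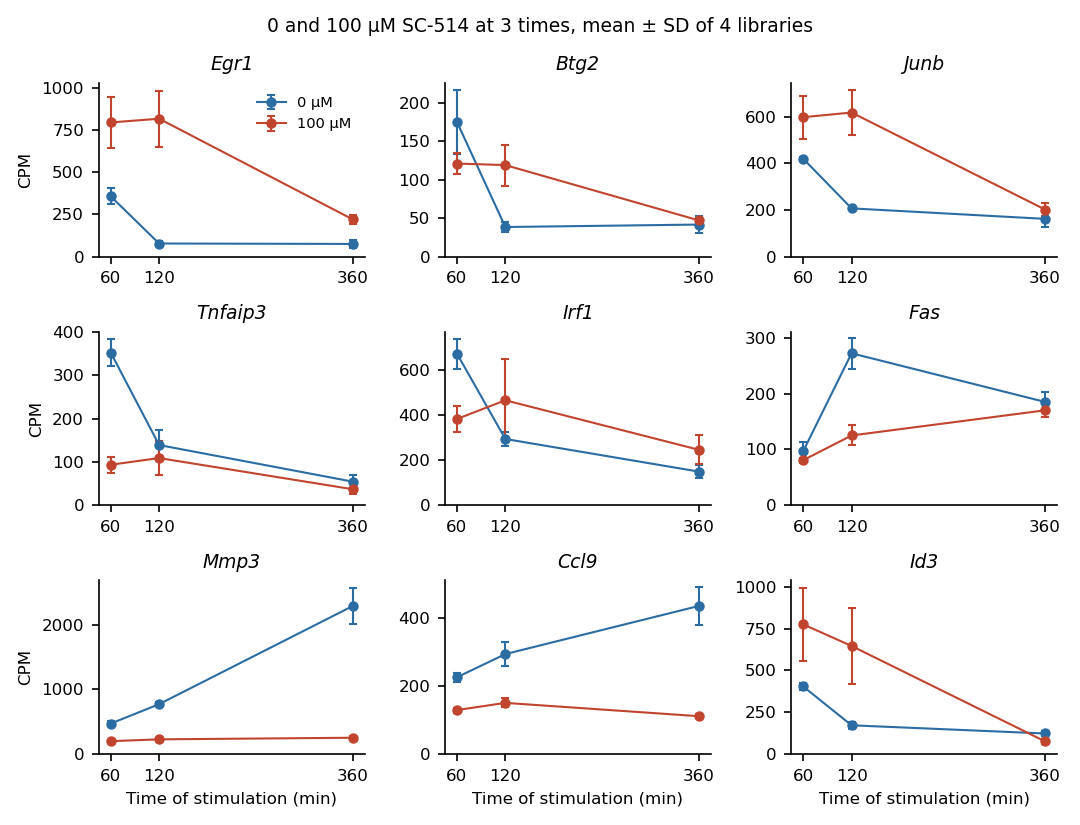
Mean level in CPM ± SD (n = 4) of 9 genes at 0 and 100 µM SC-514 after 60, 120 and 360 min of stimulation labelled IL-1β. Egr1 declines after 60 min at 0 µM but stands at 795 and 817 CPM after 60 and 120 min at 100 µM, and Mmp3 climbs to 2291 CPM by 360 min at 0 µM only.

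Against 360 min, 471 genes differed in the positive direction (4.37%) and 401 in the negative (3.72%). That split turned to 402 and 537 with RLE factors, to 276 and 331 with DESeq2 and to 233 and 279 without the libraries numbered 4, and without number 1, 2 or 3 it was 312 and 277, 311 and 238 or 247 and 179. Mmp3 reached 2291 ± 277 CPM at 0 µM after 360 min and 253 ± 32 CPM at 100 µM, a larger fall than at 120 min (interaction 1.46, SE 0.15, adjusted p = 1.61e-12), and Ccl9 behaved likewise (434 ± 55.5 and 111 ± 5.34 CPM at 360 min, 1.05, SE 0.13). Of the BMP and TGF-β list 10 of 18 differed in the positive direction, and Id3, higher under the inhibitor at 120 min, stood at 123 ± 16.3 CPM at 0 µM and 75.7 ± 15.2 CPM at 100 µM after 360 min (2.66, SE 0.32, adjusted p = 1.85e-10). Id1 stood at 228 ± 20.5 and 111 ± 10.4 CPM (1.85, SE 0.22). Ccn1 stood at 271 ± 72.1 and 565 ± 89 CPM after 360 min, a smaller difference than at 120 min (2.37, SE 0.26). Nfkbie, lower under the inhibitor at 120 min, stood at 183 ± 21.1 and 193 ± 25 CPM after 360 min (-0.96, SE 0.21, adjusted p = 6.16e-04). Of 27 sterol genes 10 differed in the positive direction, and of 30 interferon-stimulated genes 7 in the negative.

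The same interaction against the libraries labelled TNF-α at 120 min called fewer genes than that against 360 min: 78 differed in the positive direction (0.725%) and 37 in the negative (0.344%). These counts rest on the libraries numbered 3 of every group, without which 13 and 2 genes were called. Without number 2 they were 46 and 22, without number 4 they were 46 and 19, and with RLE factors 72 and 61. Il6 stood at 232 ± 48.9 and 31.3 ± 4.54 CPM there (-0.58, SE 0.44, adjusted p = 0.666), Mmp3 at 784 ± 98.3 and 189 ± 19.7 CPM (0.35, adjusted p = 0.309) and Egr1 at 70.1 ± 8.16 and 755 ± 155 CPM (0.029, SE 0.33, adjusted p = 0.995), and a p that misses the threshold does not show that the differences were alike. Nfkbia differed: it stood at 342 ± 19.1 and 788 ± 175 CPM under TNF-α, a more positive difference than under IL-1β (-0.83, SE 0.18, adjusted p = 0.00205). Cxcl2 stood at 24.5 ± 8.2 and 35.7 ± 13.4 CPM under TNF-α, where it was not lower, against 12.5 ± 3.13 and 3.52 ± 2.36 CPM under IL-1β (-2.29, SE 0.53, adjusted p = 0.00535). Zc3h12a, at 136 ± 9.17 and 116 ± 11.4 CPM under TNF-α, differed in the other direction (1.12, SE 0.22, adjusted p = 7.27e-04). Leaving out the libraries of 1 number in every group ended the calls of Nfkbia (number 3, adjusted p = 0.308, and number 4, 0.0793), Cxcl2 (numbers 1, 3 and 4, 0.0713 to 0.0933) and Zc3h12a (number 3, 0.0902), and a fit on the 4 groups alone ended that of Nfkbia (0.163).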

How the data were processed

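Per the labels, the RNA of 3T3 fibroblasts was sequenced as 3′ TagSeq libraries (poly-A-directed). The authors deposited raw gene counts in 1 table of 22070 genes and 164 columns; 656 sample records share these columns, 4 records to a column, and each column was used as 1 library. Per the submitters' processing notes Bowtie2 and the builds GRCm38 and mm10 were used. Neither the counting tool nor its strand setting is given in the sources used here.

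edgeR 4.0.16 (R 4.3.3) fitted 1 quasi-likelihood model with robust dispersions over all 41 groups, with TMM factors and genes kept by its filter on low counts (10766 genes). 2 libraries of other groups held under 20000 counts and stayed in the fit. Adjusted p-values are Benjamini-Hochberg over all tested genes of a comparison, two-sided, with a threshold of 0.05. Levels are counts scaled to 1000000 counts in the column (CPM), n = 4 per group. Standard errors and log2 differences come from the same fit. Intervals on ratios of counts are 95% and, like the floor of 3 counts, cover counting error only. Positions come from GENCODE M21; 29 tested genes were not in it and kept the name in the table. Promoter windows come from RefSeq. Python 3.11.15 with pandas 2.3.3 made the tables.

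The alternatives, 23 fits, were DESeq2 1.42.0, other scaling factors, no filter, a block for the replicate number, fits on only the groups compared, thinned libraries and each library left out. On simulated counts of 10727 genes for the comparison of 100 with 0 µM, the fit recovered 92% of 50 genes raised 2-fold (log2 of 1) and 88% of 50 lowered as much, and 6% of its calls were unchanged genes. These counts were drawn from the fitted model with its own dispersions. Only 50 genes at each log2 of 2, 1, -1 and -2 were changed, all with a mean of at least 5 CPM. The real comparison called 3278 genes, so these shares do not carry over to its calls. Deviations from the group means of same-numbered libraries at 0 and 100 µM correlated at -0.00922 to 0.097 across genes. Those of libraries with other numbers correlated at -0.0609 to 0.0496, and 2 of the 4 libraries at 100 µM were closest to their own number. Correlations this small do not decide whether the numbers pair the libraries.

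The groups, the members and the gene lists were chosen with earlier results of these data known. The rule for named genes took, among calls with a mean of at least 5 CPM, no overlap between libraries and the call kept in all 8 leave-one-out fits, the 20 largest rises, the 20 largest falls and the 5 smallest p in each direction (5 in each direction for each interaction), without predicted, ribosomal protein and mitochondrial genes, beside up to 5 members of each list and a short set of genes named whatever their values. The histone list, and further genes such as Has2, Timp1, Cxcl10 and Nr4a2, were named after their values were seen. A few genes that the rule names are not reported here. A gene that overlaps a named one is stated where its counts were at least 10% of those of the named gene.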

Additional observations from a re-analysis of the deposited data

Results flagged for a closer look

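Values in a group of 4 libraries were tested for a highest or lowest library far from the other 3 with Dixon's ratio at 95%. Of 288 such tests 24 gave a library that stood apart, against a nominal rate of about 1 in 20. That rate assumes continuous values and may not hold for genes with few counts, such as Il1a at 100 µM and Dusp2 at 0 µM. Among the libraries at 0 µM these were number 1 for Gsta4 (191 CPM), Col3a1 (189 CPM) and Mmp2 (260 CPM), number 2 for Il1a (11.1 CPM), Fosb (2.61 CPM), Id3 (205 CPM) and Herpud1 (79 CPM), number 3 for Pde4b (86 CPM), and number 4 for Mmp3 (813 CPM), Dusp2 (1.31 CPM) and Hspa1b (49.7 CPM). Among those at 100 µM, number 1 stood apart in its 14634 genes with a count, in its share of counts on predicted genes (1.53%), and for Il11 (15.5 CPM), Birc2 (49.7 CPM) and Tpm4 (632 CPM). Number 2 stood apart for Pim1 (121 CPM), Smad6 (93.7 CPM), Grem1 (1612 CPM), Hes1 (141 CPM) and Atf4 (1217 CPM), number 3 for Traf1 (12.9 CPM) and Herpud1 (113 CPM), and number 4 for Il1a (1.04 CPM, with the other 3 at 0).

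The difference between 100 and 0 µM itself differed between conditions, by the interaction in edgeR's fit, in 46 genes against 60 min, 872 genes against 360 min and 115 genes against the libraries labelled TNF-α. A positive value means a more positive difference at 120 min under IL-1β. Against 60 min the genes of smallest p were Btg2 (2.16), Egr1 (2.25), Tnfaip3 (1.59), Ccn1 (1.61) and Irf1 (1.49) in the positive direction. In the negative direction they were Fas (-0.85), Cacnb3 (-0.69), Zbtb7a (-0.58), Hivep2 (-1.20) and Tapbpl (-0.99). Against 360 min they were Mmp3 (1.46), Ccn1 (2.37), Ccl9 (1.05), Id1 (1.85) and Id3 (2.66), and Oaf (-0.99), Rnf19b (-1.24), Srsf5 (-0.93), Cgas (-1.57) and Rbm25 (-0.84). Against TNF-α they were the abundant genes Fth1 (0.50), Vim (0.46), Hint1 (0.40) and Lgals1 (0.37), and Ctnnb1 (-0.74), Cacnb3 (-0.69), Kbtbd4 (-1.12), Aifm1 (-0.53) and Drap1 (-0.63). Leaving out the libraries of 1 number in every group ended the calls of Cacnb3, Zbtb7a, Hivep2 and Tapbpl against 60 min for at least 2 numbers each, with adjusted p of 0.0622 to 0.454. It also ended, against TNF-α, those of Hint1, Lgals1, Ctnnb1, Kbtbd4, Aifm1 and Drap1 for number 3, with adjusted p of 0.0825 to 0.214.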

How the results depend on the processing

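Of 184 values called for single genes, 149 kept the call under all alternatives run, and none of the 184 changed sign. Part of this was fixed by the choice of genes. Those named for the largest or surest differences had to keep the call with each of the 8 libraries left out, and these fits are among the alternatives. Calls at 100 against 0 µM numbered 1536 higher and 1742 lower, 1233 to 1474 and 1506 to 1661 with 1 of the 8 libraries left out, and 1125 to 1261 and 1406 to 1526 with 1 number left out of every group. With upper-quartile factors, run without the 2 shallow libraries because the quartile of 1 of them is 0 and added after seeing the data, they numbered 2039 and 1425, so that the share of calls that were higher moved from 46.9% to 58.9%. With RLE factors they numbered 1774 and 1584 (52.8% higher) and with DESeq2 1398 and 1332 (51.2% higher). With the replicate number as a block they numbered 1744 and 1874 (1357 and 1537 on the 8 libraries alone). Small differences of genes near 3 counts per library may be missed at this depth, and the limit was not tested. Large ones could be called, as for Dusp2 (0.833 CPM at 0 µM and 7.77 CPM at 100 µM). The cause of the changes below was not tested.

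DESeq2 gave 456 genes higher at 25 against 0 µM, 88 lower at 100 against 50 µM, 27 and 2 in the interaction with 60 min and 276 in the positive direction against 360 min. RLE factors gave 152 lower at 100 against 50 µM (211 higher, 58.1% of calls higher against 38.3%), 61 negative against TNF-α (72 positive, 54.1% against 67.8%), 42.8% positive against 360 min (402 and 537, against 54%), and shares of genes higher under IL-1β and TNF-α against unstimulated cells of 54.6% and 50.8% against 65.2% and 64.1%. Upper-quartile factors gave 215 higher at 100 against 50 µM (57.6%) and 814 and 939 lower under IL-1β and TNF-α (44.8% and 44.6% higher). Without the filter, 223 were higher at 100 against 50 µM, 129 and 35 differed against 60 min and 120 and 85 against TNF-α. The replicate block over all groups gave 235 and 349 at 100 against 50 µM, 71 and 27 against 60 min, 147 and 85 against TNF-α, 554 and 222 under IL-1β, 770 and 673 for IL-1β with 100 µM against unstimulated cells, and 314 lower under TNF-α. A fit on only the groups compared gave 56 higher at 100 against 50 µM and 47 and 20 against TNF-α, and leaving out the 2 shallow libraries gave 9 negative against 60 min. In the check on deviations 0 of 4 correlations of same-numbered libraries were over 0.1, which does not decide whether the numbers pair the libraries.

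Leaving out the libraries of 1 number in every group gave 403 to 502 and 460 to 672 at 25 µM, 676 to 789 and 905 to 1149 at 50 µM, 48 to 105 and 104 to 152 at 100 against 50 µM, 22 to 25 and 1 to 11 against 60 min, 233 to 312 and 179 to 279 against 360 min, 13 to 91 and 2 to 42 against TNF-α, 596 to 692 and 270 to 375 under IL-1β, 840 to 892 and 961 to 1055 for IL-1β with 100 µM against unstimulated cells, and 721 to 832 and 318 to 482 under TNF-α.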

Other observations

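Gene lists not described above are given by their counts, beside 14.3% higher and 16.2% lower over all genes tested. Of 13 tested circadian clock genes 5 were higher at 100 than at 0 µM and 0 lower (4 and 0 without library 1 at 100 µM), among them Ciart, a repressor of the clock, at 2.33 ± 1.23 and 12.6 ± 4.32 CPM (2.35, SE 0.42). Of 10 tested Wnt pathway genes 4 were higher and 1 lower. In the list of ferritin and iron genes 3 of 8 were higher and 2 lower, and Tfrc, the transferrin receptor, fell from 154 ± 16.6 to 91.4 ± 11.2 CPM (-0.79, SE 0.13). Of 20 respiratory chain genes 2 were higher and 3 lower, and of 13 genes of MHC class I and antigen processing 2 and 2, shares near those over all genes tested. Sdc1, the heparan sulfate proteoglycan syndecan 1, was among the genes of smallest p that fell, from 261 ± 26.1 to 108 ± 16.8 CPM (-1.31, SE 0.095). The linker histone gene H1f0 rose from 110 ± 15.5 to 362 ± 61.5 CPM (1.68, SE 0.14).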
